A study of Mus musculus with 6 samples.

Results

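The genes described here encode beta-catenin (Ctnnb1), the scaffold proteins Axin1 and Axin2, and the DNA-binding factors Tcf7 and Tcf7l2, which are core parts of one signalling chain. They were chosen by gene symbol, and the FPKM values (fragments per kilobase of transcript, relative to all fragments mapped in that library) of all listed transcripts of a symbol were added up. The 5 genes and their 33 transcripts are part of 13659 gene symbols and 37478 transcripts. Expression was measured by RNA-seq in 6 libraries of MC3T3-E1 cells, subclone 4, a clonal line of osteoblast-like cells that came from the skull bone (calvaria) of a mouse. In 3 libraries the cells had received PTH(1-34), an active fragment of parathyroid hormone, and in 3 they had received vehicle. The labels state a treatment of 30 min in one place and of 2 h in another for both groups, so the time behind each value is uncertain. Libraries are numbered 1 to 3 in both groups. Separate cultures are not mentioned in the labels, so the p-values describe the spread among these libraries, and that spread may be technical.

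Beta-catenin joins cadherins to the actin cytoskeleton at cell contacts, and in the nucleus it serves as the coactivator of the TCF and LEF proteins, which otherwise sit on their target genes with corepressors. Without a Wnt signal, an Axin protein holds beta-catenin together with the APC protein and the kinases GSK3 and CK1, which mark it for degradation; a Wnt signal disables this complex and beta-catenin accumulates. Axin2 is itself a target gene of beta-catenin and TCF in many tissues and works as a feedback inhibitor, and in bone the pathway is known for its part in osteoblast formation.

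The 5 genes span a wide range of levels. In both groups Ctnnb1 was by far the highest per length and Axin1 came next. In PTH-treated libraries Tcf7l2 followed, while Tcf7 (1.60 to 5.99 FPKM) and Axin2 (2.14 to 4.04 FPKM) overlapped at the low end. In vehicle libraries Tcf7l2 (13.0 to 15.2 FPKM) overlapped Tcf7 (3.85 to 15.5 FPKM), which overlapped Axin2 (6.05 to 10.4 FPKM).

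The start regions of 4 members are shown, since sites for TCF proteins and for factors that answer to cyclic AMP, the messenger of the PTH receptor, are commonly looked for there. Sequences are those of RefSeq for GRCm38.p6 (the assembly that mm10 names), cover 250 bases before to 50 bases after an annotated start, and read 5′ to 3′ on the strand of the gene. RefSeq windows were matched for 4 of the 5 members, 7 windows in all, of which 5 are shown, and Axin1 is named only. Capitals mark the letters of TGACG, the core of the cyclic AMP response element, where they lie on the opposite strand and so read CGTCA here.
Axin2, chr11:108920099-108920398, plus strand, the start of transcript Axin2-201: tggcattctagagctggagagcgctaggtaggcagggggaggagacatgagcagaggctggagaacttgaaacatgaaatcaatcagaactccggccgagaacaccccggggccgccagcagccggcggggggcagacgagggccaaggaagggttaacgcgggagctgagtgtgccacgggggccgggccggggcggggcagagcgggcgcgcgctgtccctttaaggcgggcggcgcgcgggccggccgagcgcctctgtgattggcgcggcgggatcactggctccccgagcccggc
Tcf7, chr11:52282965-52283264, minus strand, the start of transcript Tcf7-202: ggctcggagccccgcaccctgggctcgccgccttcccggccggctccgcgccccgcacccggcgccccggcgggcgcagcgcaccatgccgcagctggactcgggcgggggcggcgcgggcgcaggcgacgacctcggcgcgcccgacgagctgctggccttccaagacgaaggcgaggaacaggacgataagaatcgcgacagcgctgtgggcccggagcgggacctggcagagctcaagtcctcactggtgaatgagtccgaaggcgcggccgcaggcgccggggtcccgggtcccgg
Tcf7, chr11:52282546-52282845, minus strand, whose start lies 24 bases from that of transcript Tcf7-201: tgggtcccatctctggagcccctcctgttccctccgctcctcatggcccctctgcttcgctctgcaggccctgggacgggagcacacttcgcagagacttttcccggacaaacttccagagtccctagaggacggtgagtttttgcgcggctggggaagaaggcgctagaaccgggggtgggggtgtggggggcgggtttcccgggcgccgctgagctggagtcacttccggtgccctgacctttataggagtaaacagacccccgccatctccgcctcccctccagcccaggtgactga
Tcf7l2, chr19:55741560-55741859, plus strand, whose start lies 10 bases from that of transcript Tcf7l2-201: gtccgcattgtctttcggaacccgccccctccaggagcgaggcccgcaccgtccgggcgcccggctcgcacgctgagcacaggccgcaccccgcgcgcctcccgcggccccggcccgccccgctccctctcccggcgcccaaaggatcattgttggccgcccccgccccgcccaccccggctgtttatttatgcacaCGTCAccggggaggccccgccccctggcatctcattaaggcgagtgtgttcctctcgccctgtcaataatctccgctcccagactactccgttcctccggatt
Ctnnb1, chr9:120933328-120933627, plus strand, whose start lies 6 bases from that of transcript Ctnnb1-214: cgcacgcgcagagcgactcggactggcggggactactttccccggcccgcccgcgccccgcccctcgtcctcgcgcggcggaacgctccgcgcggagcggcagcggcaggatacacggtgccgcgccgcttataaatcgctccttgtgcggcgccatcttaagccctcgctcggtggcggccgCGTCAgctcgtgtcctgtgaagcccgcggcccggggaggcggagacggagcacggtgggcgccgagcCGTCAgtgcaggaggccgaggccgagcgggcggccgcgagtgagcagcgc

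The windows were searched on both strands for CTTTGAT and CTTTGAA, which TCF proteins bind, for TGACG and the full TGACGTCA, which CREB proteins bind, and for TTATGTAA and TTACGTAA, which NFIL3 binds. TGACGTCA overlaps TGACG, and a window with the full site also counts for the core. Counted from the start base as 0 to the first capital as printed, TGACG lay at -67 and at 0 in the Ctnnb1 window and at -53 in the Tcf7l2 window. Of all 32851 windows of the same length, 20.8% held TGACG, 3.73% held CTTTGAT, 5.14% held CTTTGAA, 1.79% held TGACGTCA, 0.938% held TTATGTAA and 0.119% held TTACGTAA. The Axin2 window and both Tcf7 windows held none of these motifs, nor did the windows not shown. The start sites of Tcf7 lie 419 bases apart, and the upstream window held 45 CG pairs while the downstream one held 17.

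With the values as deposited Axin2 and, by less, Ctnnb1 and Axin1 were lower with PTH, and Tcf7l2 was higher. Of these only Axin2 passed in every fit tried. Tcf7 was lower with PTH in each numbered pair and passed only in some of the fits tried. Among them was that with the library number as a block (limma adjusted p = 0.000234). Genes with a mean of at least 1 FPKM were tested with limma on log2(FPKM + 0.5), and p-values were adjusted over all of them by the Benjamini-Hochberg method with a threshold of 0.05. Of the 5 members 3 fell (Ctnnb1, Axin1 and Axin2) and 1 rose (Tcf7l2). Over all 11628 tested genes 41.0% fell and 10.8% rose, and 47.5% had all PTH values below all vehicle values while 13.1% had them above, so a fall was common in these libraries. With each library centred on its median log2 value Axin2 fell and Tcf7l2 rose, where 24.0% of genes fell and 18.3% rose. Of the 33 transcripts 23 were tested and 5 fell, while the other 18 did not pass; of all 28055 tested transcripts 18.7% fell and 7.03% rose. With centred libraries 1 of the 23 fell, Axin2-201 (adjusted p = 0.0156), where 8.76% of all tested transcripts fell. In 6 of the 23 all PTH values lay below all vehicle values and in 2 above, where the shares over all tested transcripts were 32.1% and 11.3%.

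Axin2, the feedback inhibitor, fell with PTH. The gene (ENSMUSG00000000142; chr11:108920349-108950783, plus strand, mm10) had 2.14, 4.04 and 2.92 FPKM in PTH libraries 1, 2 and 3, against 6.05, 10.4 and 8.36 FPKM in vehicle libraries 1, 2 and 3. Every PTH value lay below every vehicle value. The means were 3.03 ± 0.959 FPKM with PTH and 8.27 ± 2.18 FPKM with vehicle (SD, n = 3 each), a ratio of 0.367. The change was -1.32 on the scale of log2(FPKM + 0.5) (SE 0.25, 95% interval -1.90 to -0.73; limma adjusted p = 0.00444). That scale understates the change of genes with low values. Within the libraries of one number the log2 difference was -1.31, -1.26 and -1.37 for numbers 1, 2 and 3, so the difference was nearly constant although the levels of both groups were lowest in the libraries numbered 1. In bulk RNA, fewer cells of a type and less RNA per cell cannot be told apart.

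**Figure D1:**
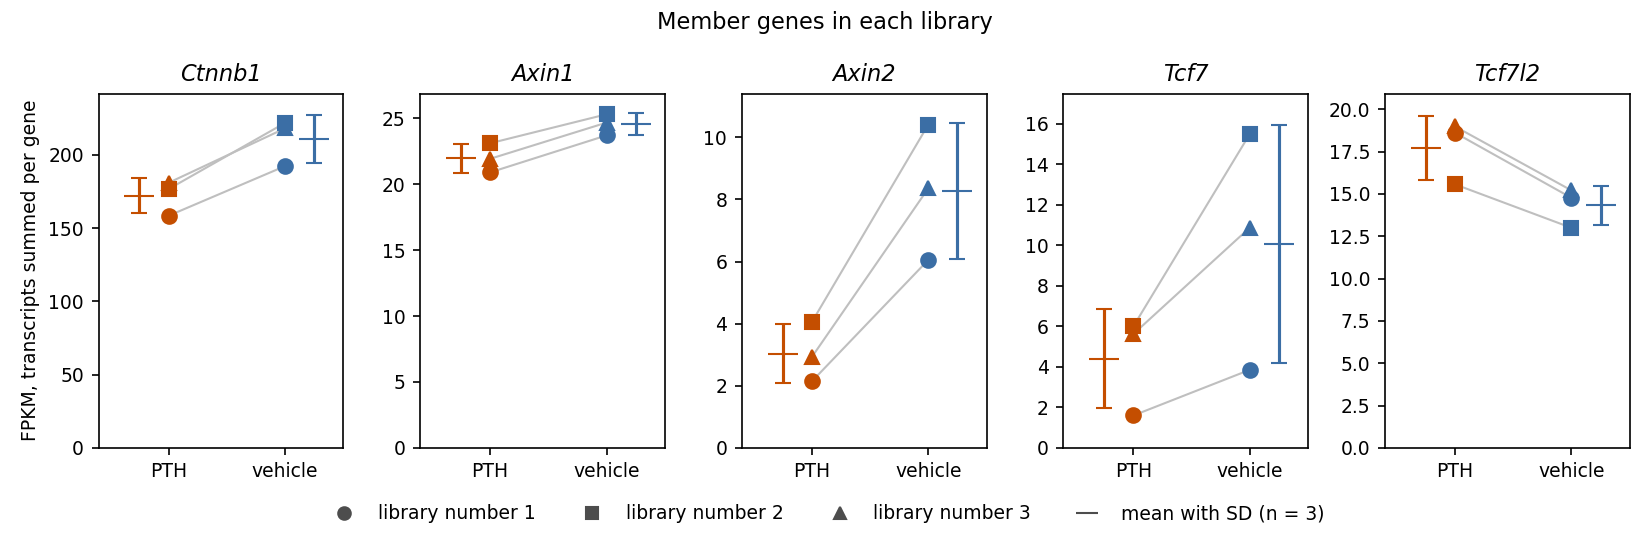
FPKM of the 5 genes in each library, transcripts summed per gene, with PTH on the left and vehicle on the right of each panel; symbols give the library number, grey lines join libraries of the same number, and crosses with bars give the mean and SD of 3 libraries. The PTH values of Axin2 lie between 2.14 and 4.04 FPKM, below the vehicle values of 6.05 to 10.4 FPKM, whereas the Tcf7 values of the groups overlap.

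Axin2-201, the longest listed transcript with a coding length of 2520 bases, held most of the signal and fell. It had 1.36, 2.67 and 2.05 FPKM with PTH, against 4.55, 7.54 and 6.55 FPKM with vehicle, again without overlap (log2 -1.42, SE 0.25, limma adjusted p over all tested transcripts = 0.00892). Axin2-202, which starts 2832 bases downstream and has a coding length of 2325 bases, had 0.515, 0.805 and 0.543 FPKM with PTH, against 0.648, 1.81 and 0.921 FPKM with vehicle (log2 -0.48, adjusted p = 0.253). Axin2-201 held 66.5% of the summed FPKM with PTH and 75.3% with vehicle on average. A test of the log2 ratio of each transcript to the rest of its symbol gave an adjusted p of 0.0676 for Axin2, and 0.152 with the library number as a block; limma's diffSplice, described with Tcf7l2, gave 0.177, and 0.0218 with the block. The other listed transcripts, Axin2-204 and Axin2-206, lay under the minimum mean of 0.5 FPKM for a test; the first was below every vehicle value in every PTH library and the second overlapped. In the authors' deposited table Axin2-201 was the 1 of 33 member transcripts with a q-value under 0.05 (log2 -1.45, p = 5e-05, q = 0.00111), where 7.62% of all 37478 transcripts had one. That table names its groups only q1 and q2, and its value for Axin2-201 has the same sign as the PTH over vehicle difference here. For some other member transcripts the signs differ, as given below.

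Axin1, the scaffold that is made in most cells whether or not Wnt signals, differed little between the groups. The gene (ENSMUSG00000024182; chr17:26138688-26195811, plus strand, mm10) had 20.9, 23.1 and 21.9 FPKM with PTH, against 23.7, 25.3 and 24.7 FPKM with vehicle, so every PTH value was lower. The means were 22.0 ± 1.11 FPKM with PTH and 24.6 ± 0.808 FPKM with vehicle (SD, n = 3 each). The change of -0.16 (SE 0.05, 95% interval -0.28 to -0.03) passed the threshold (limma adjusted p = 0.0419), but the median over all 11628 tested genes was -0.15 as well. With each library centred on its median, which moved that median by 0.12, the Axin1 change was -0.03 (adjusted p = 0.655), so its fall did not exceed the shift of all genes. The call was also lost without PTH 1 (adjusted p = 0.103), without PTH 3 (0.10), without vehicle 2 (0.123) and without vehicle 3 (0.106).

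The 3 tested Axin1 transcripts did not pass, and 0 of them had an unadjusted p under 0.05, a rule whose share over all transcripts was not counted. Axin1-201, with the longest coding length of 2604 bases, held 50.6% of the FPKM with PTH and 46.5% with vehicle, and changed by -0.04 (adjusted p = 0.712). The authors' deposited value for Axin1-201 had the opposite sign and did not pass (log2 0.11, q = 0.998). Axin1-202 and Axin1-203 share a coding length of 2496 bases. Axin1-202 had 8.03, 8.57 and 7.30 FPKM with PTH and 6.39, 10.1 and 12.6 FPKM with vehicle, and among vehicle libraries it was high where Axin1-203 was low. Axin1-203 had 1.27, 2.69 and 2.80 FPKM with PTH and 5.74, 2.44 and 0.373 FPKM with vehicle. Their sum was steadier, at 9.30, 11.3 and 10.1 FPKM with PTH and 12.1, 12.5 and 13.0 FPKM with vehicle. Within a library the ratio of Axin2 to Axin1, chosen after the values were seen, was 0.102, 0.175 and 0.133 with PTH, against 0.255, 0.411 and 0.339 with vehicle, without overlap (exact two-sided permutation p = 0.1, the smallest that 3 against 3 allows).

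Ctnnb1, which encodes beta-catenin itself, fell by a modest amount. The gene (ENSMUSG00000006932; chr9:120929216-120960507, plus strand, mm10) had 158, 177 and 181 FPKM with PTH, against 192, 222 and 218 FPKM with vehicle. All PTH values were lower than all vehicle values. The means were 172 ± 12.0 FPKM with PTH and 211 ± 16.1 FPKM with vehicle (SD, n = 3 each), and the log2 change was -0.29 (SE 0.08, 95% interval -0.47 to -0.11; limma adjusted p = 0.0162). With centred libraries the change was -0.17 and did not pass (adjusted p = 0.123), although it did with centring and the library number as a block (adjusted p = 0.00604). The call was lost without vehicle 2 (-0.25, adjusted p = 0.0535) and without vehicle 3 (-0.27, adjusted p = 0.0583).

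Ctnnb1-214 made up most of the signal, 87.8% with PTH and 86.8% with vehicle. It had 139, 156 and 157 FPKM with PTH, against 167, 194 and 188 FPKM with vehicle (log2 -0.28, adjusted p = 0.0389). The authors' deposited comparison gave Ctnnb1-214 a smaller fall that did not pass (log2 -0.10, p = 0.436, q = 0.998). Ctnnb1-201, which has the same coding length of 2343 bases and a longer transcript (3623 bases, against 2702 bases for Ctnnb1-214), had 4.44, 3.84 and 7.12 FPKM with PTH and 8.36, 10.7 and 8.58 FPKM with vehicle (log2 -0.82, adjusted p = 0.0364). Of the 8 tested Ctnnb1 transcripts 4 fell, where 18.7% of all tested transcripts did. Beside Ctnnb1-214 and Ctnnb1-201 these were the short Ctnnb1-205 (-0.53) and Ctnnb1-207 (-0.56). With centred libraries 0 of the 8 fell by limma, where 8.76% of all tested transcripts did. An unadjusted p under 0.05 was seen in 3, and the share of all tested transcripts under that looser rule was not counted. Ctnnb1-214 then changed by -0.14 (limma adjusted p = 0.245), Ctnnb1-201 by -0.68 (0.0755), Ctnnb1-205 by -0.40 (0.0603) and Ctnnb1-207 by -0.42 (0.0892). With the library number as a block 2 of them fell, where 19.9% of all tested transcripts did. Ctnnb1-201 (limma adjusted p = 0.0608) and Ctnnb1-207 (0.0572) no longer passed.

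Tcf7l2, which had a higher mean level than Tcf7 in both groups, rose. The gene (ENSMUSG00000024985; chr19:55741820-55933654, plus strand, mm10) had 18.6, 15.6 and 19.0 FPKM with PTH, against 14.8, 13.0 and 15.2 FPKM with vehicle. The lowest PTH value lay just above the highest vehicle value. The means were 17.7 ± 1.88 FPKM with PTH and 14.3 ± 1.17 FPKM with vehicle (SD, n = 3 each), and the log2 change was 0.30 (SE 0.09, 95% interval 0.07 to 0.52; limma adjusted p = 0.0355). With centred libraries the change was 0.42 (adjusted p = 0.0109). The difference within numbers 1, 2 and 3 was 0.33, 0.25 and 0.31. The call was lost without PTH 1 (0.26, adjusted p = 0.0981), PTH 3 (0.24, 0.109), vehicle 1 (0.32, 0.0604), vehicle 2 (0.23, 0.10) or vehicle 3 (0.34, 0.0514).

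**Figure D2:**
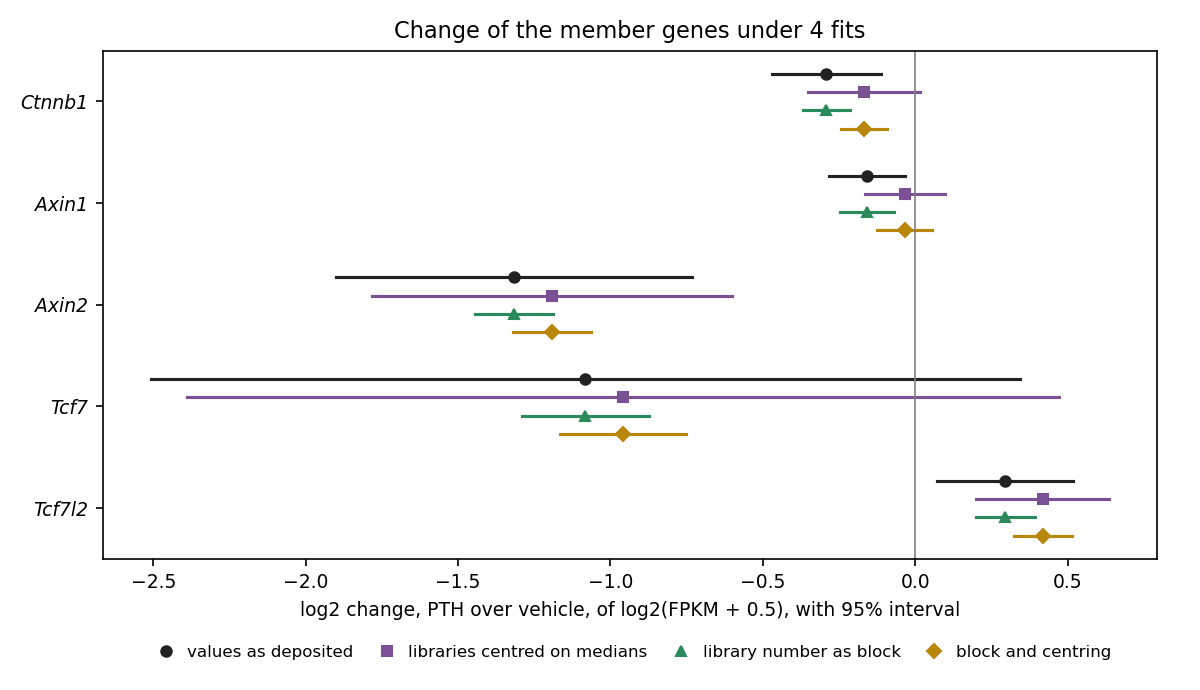
Log2 change of the 5 genes, PTH over vehicle, with 95% intervals, under the values as deposited, with libraries centred on their medians, with the library number as a block, and with both. The Axin2 interval stays below 0 and the Tcf7l2 interval above 0 in each fit, the Axin1 interval includes 0 once libraries are centred, and the Tcf7 interval is narrow only with the block.

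Single Tcf7l2 transcripts gave no call. There were 11 listed transcripts and 8 of them were tested. Their changes did not pass after adjustment. The share of all tested transcripts with an unadjusted p under 0.05 was not counted, and 1 of these 8 had such a p. That transcript was Tcf7l2-209, with 2.74, 1.96 and 2.08 FPKM in PTH libraries, against 0.122, 0.604 and 1.53 FPKM in vehicle libraries. The groups did not overlap, yet the vehicle values differed widely among themselves (log2 1.30, SE 0.41, adjusted p = 0.0636).

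Tcf7l2-202, the highest transcript, had 3.02, 3.54 and 4.76 FPKM with PTH and 5.49, 3.96 and 3.00 FPKM with vehicle, a log2 difference of -0.11 (95% interval -0.66 to 0.45, which includes the change of the gene; adjusted p = 0.778). The authors' deposited value for Tcf7l2-202 had the opposite sign and did not pass (log2 0.09, q = 0.998). The Tcf7l2-202 values of the groups overlapped, and its share of the Tcf7l2 signal was 21.4% with PTH and 29.1% with vehicle. Tcf7l2-209 has the same coding length of 1377 bases and held 12.8% with PTH and 5.18% with vehicle. Without Tcf7l2-209 the sum of the gene changed by 0.18 and did not pass (adjusted p = 0.159). Of the other transcripts Tcf7l2-222 had 1.34, 1.47 and 2.09 FPKM with PTH and 1.18, 1.33 and 1.19 FPKM with vehicle, without overlap (log2 0.28, adjusted p = 0.239).

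The protein-coding transcripts together had 12.3, 11.2 and 13.2 FPKM with PTH, against 10.6, 9.46 and 10.2 FPKM with vehicle, without overlap. Their share of the Tcf7l2 signal was 69.4% ± 2.92 with PTH and 70.6% ± 3.02 with vehicle (SD, n = 3 each), a difference smaller than the SD of either group. The other transcripts mostly hold a retained intron. All but 1 of the listed transcripts start within 522 bases of the annotated gene start; Tcf7l2-219, a processed transcript, starts 156489 bases downstream. It had 1.91, 0.685 and 2.05 FPKM with PTH and 1.20, 1.04 and 1.43 FPKM with vehicle, which overlap.

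Whether the transcripts of a gene changed by different amounts was asked with limma's diffSplice, which gave Tcf7l2 an adjusted p of 0.0374 and called 11.4% of the 5991 symbols with at least 2 tested transcripts. The call was lost with the library number as a block (adjusted p = 0.0799), which called 14.3% of symbols. It was lost as well without PTH 1 (0.174), PTH 2 (0.0932), PTH 3 (0.0748), vehicle 1 (0.451) or vehicle 2 (0.152). diffSplice shares 1 variance over the transcripts of a symbol, and it made many false calls on simulated data. The log2 ratio of each transcript to the rest of its symbol, with a variance for each transcript, called 3.36% of symbols and gave Tcf7l2 an adjusted p of 0.534. FPKM of overlapping isoforms is an estimate that divides shared reads, so values of single transcripts carry an error that these values do not show.

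**Figure D3:**
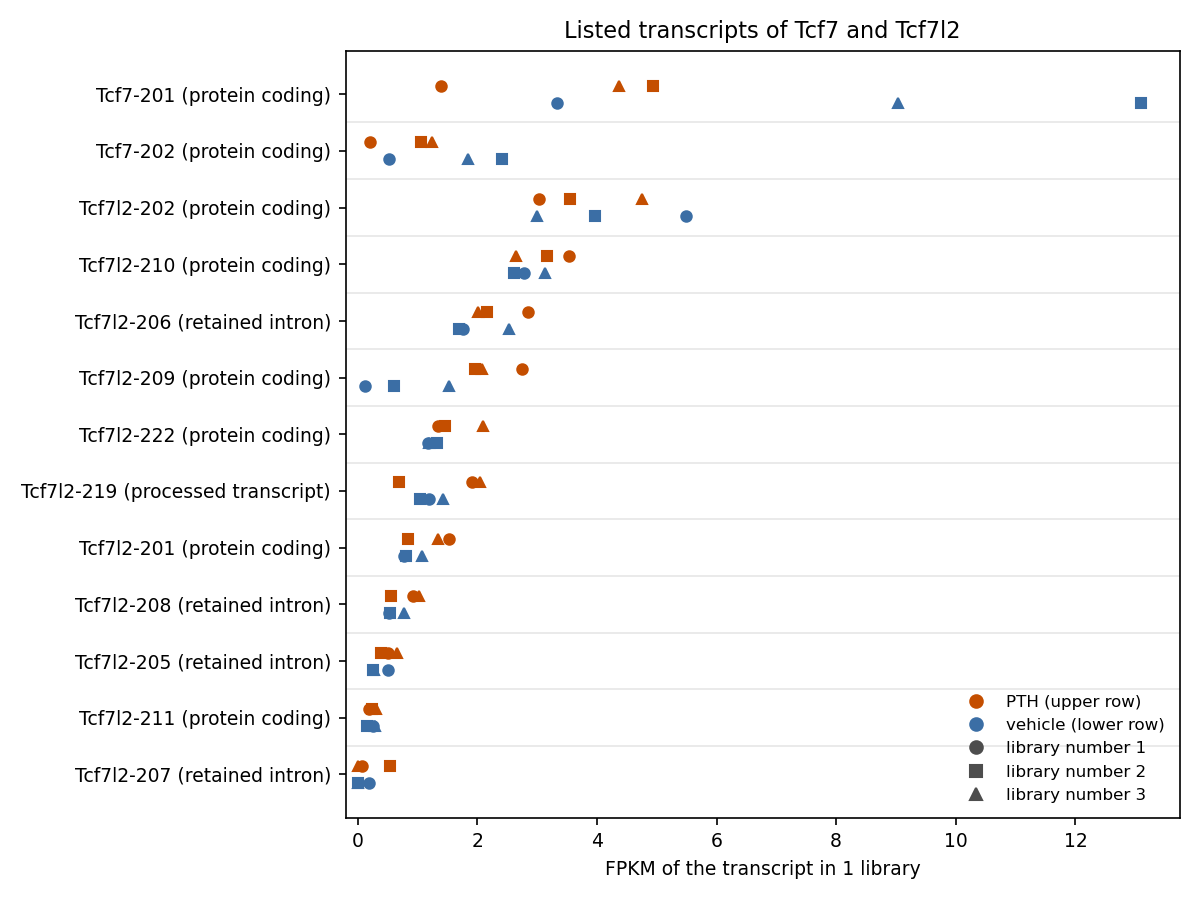
FPKM of each listed transcript of Tcf7 and Tcf7l2 in each library, PTH in the upper and vehicle in the lower line of points of each transcript, with symbols for the library number. Tcf7l2-209 lies between 1.96 and 2.74 FPKM in PTH libraries and between 0.122 and 1.53 FPKM in vehicle libraries, and both Tcf7 transcripts are lowest in the libraries numbered 1.

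Tcf7, the TCF factor best known from T cells, was lower with PTH in each numbered pair, but its level also differed strongly between libraries of one group. The gene (ENSMUSG00000000782; chr11:52252371-52283014, minus strand, mm10) had 1.60, 5.99 and 5.62 FPKM with PTH, against 3.85, 15.5 and 10.9 FPKM with vehicle. The vehicle library numbered 1 lay below the PTH libraries numbered 2 and 3, so the groups overlapped. The means were 4.40 ± 2.44 FPKM with PTH and 10.1 ± 5.86 FPKM with vehicle (SD, n = 3 each). The change of -1.08 (SE 0.60, 95% interval -2.51 to 0.34) missed the threshold (adjusted p = 0.174 by limma; exact two-sided permutation p = 0.3).

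With the library number as a block the Tcf7 change had an SE of 0.08 and passed (95% interval -1.29 to -0.88, adjusted p = 0.000234); in that fit 50.0% of all tested genes fell. The differences within numbers 1, 2 and 3 were -1.05, -1.30 and -0.89. Without both libraries numbered 1 the change was -1.10 (adjusted p = 0.00944), and without vehicle 1 alone it was -1.63 (adjusted p = 0.0444). It was -0.55 without PTH 1 (adjusted p = 0.426) and -0.69 without vehicle 2 (0.406).

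The libraries numbered 1 were the lowest of their group in some other genes and not in all. Lef1, a close relative of Tcf7, had 0.444, 1.24 and 0.974 FPKM with PTH and 0.532, 1.52 and 1.02 FPKM with vehicle, under the minimum mean of 1 FPKM for a test. The osteoblast genes Ibsp (22.4, 58.6 and 81.9 FPKM with PTH; 28.5, 99.0 and 94.5 FPKM with vehicle) and Pth1r (15.2, 26.8 and 31.6 FPKM with PTH; 26.9, 51.9 and 51.2 FPKM with vehicle) were lowest there as well. Spp1, another osteoblast gene, was highest there (748, 565 and 505 FPKM with PTH; 699, 560 and 459 FPKM with vehicle). Runx2, the factor that starts the osteoblast programme, had 67.3, 66.3 and 72.8 FPKM with PTH and 53.0, 57.4 and 64.9 FPKM with vehicle, and was lowest there only with vehicle. The part of that difference between libraries in the Tcf7 result was not tested.

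Both listed Tcf7 transcripts were lower with PTH in each numbered pair. Tcf7-201 had 1.40, 4.94 and 4.38 FPKM with PTH and 3.33, 13.1 and 9.03 FPKM with vehicle (log2 -1.10, adjusted p = 0.214, and 0.00514 with the block). Tcf7-202 had 0.200, 1.06 and 1.24 FPKM with PTH and 0.522, 2.41 and 1.84 FPKM with vehicle (log2 -0.63, adjusted p = 0.407, and 0.0457 with the block). They hold the same start codon and a coding length of 909 bases each, in exon 2 of Tcf7-201 and in exon 3 of Tcf7-202, and differ in where transcription starts, in the windows shown above. Tcf7-201 held 82.6% of the Tcf7 signal with PTH and 84.7% with vehicle, and a difference in change between the pair was not detected (diffSplice adjusted p = 0.774, and 0.120 with the block). Tcf7 is known to be made in long forms that bind beta-catenin and short forms that lack the binding domain. In both listed transcripts coding starts at base 52282217 of chr11, downstream of both windows shown. The coding sequence of these models therefore includes nothing further upstream, and which form they encode was not tested. Other Tcf7 transcripts were not analysed here. Within a library the ratio of Tcf7l2 to Tcf7, chosen after the values were seen, was 11.7, 2.60 and 3.38 with PTH and 3.83, 0.839 and 1.40 with vehicle, so the groups overlapped.

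The genes whose profile over the 6 libraries was most like that of a member were chosen by the smallest root mean square difference of the centred log2 values among 8686 genes. For Axin2 they were Sertad4 (0.13), Fgd3 (0.16) and Ung (0.18), whose log2 changes were -1.20, -1.40 and -1.13. Sertad4 had 13.4, 20.4 and 14.7 FPKM with PTH, against 30.9, 48.5 and 34.1 FPKM with vehicle, and was highest in the libraries numbered 2, as Axin2 was. Such likeness, also in the size of the change, follows from how these genes were chosen. For Ctnnb1 they were Cad, Osbpl2 and Snx7, for Axin1 Eif3g, Trmt10c and Map4, and for Tcf7l2 Shf, Hmgcs1 and Pank3.

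The other genes of the pathway moved in both directions, and the counts of each list depended on how libraries were scaled. As deposited, 10.8% of all tested genes rose and 41.0% fell. After centring on library medians these shares were 18.3% and 24.0%, and under cyclic loess, a scaling that depends on the level of a gene, they were 20.2% and 17.6%. With the library number as a block 13.8% rose and 50.0% fell, and without both libraries numbered 1 the shares were 9.90% and 36.2%. Of 22 tested genes of the destruction complex and its regulators 6 rose and 6 fell, with a median log2 change of -0.03, beside -0.15 over all tested genes. With centred libraries 9 rose and 4 fell, and under cyclic loess 9 rose and 2 fell. Amer1, which brings APC and Axin to the membrane, fell to 2.06 ± 0.196 FPKM with PTH, against 5.20 ± 0.266 FPKM with vehicle (SD, n = 3 each; log2 -1.15, SE 0.08, adjusted p = 9.3e-05). Dvl3, one of the Dishevelled proteins that pass the Wnt signal to Axin, fell by 0.47 and the ubiquitin ligase gene Siah1a by 0.38 on the log2 scale. Siah2, a related ligase gene, rose by 0.80, with 11.6, 12.6 and 11.3 FPKM in PTH libraries against 5.94, 7.19 and 6.68 FPKM in vehicle libraries. Csnk1a1, the CK1 kinase that primes beta-catenin for degradation, rose to 109 ± 1.34 FPKM with PTH, against 87.3 ± 2.73 FPKM with vehicle (log2 0.32). Ppp2r1a, a subunit of the phosphatase PP2A, changed by -0.12 and did not pass. The call of Siah1a was lost under cyclic loess (adjusted p = 0.101).

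**Figure D4:**
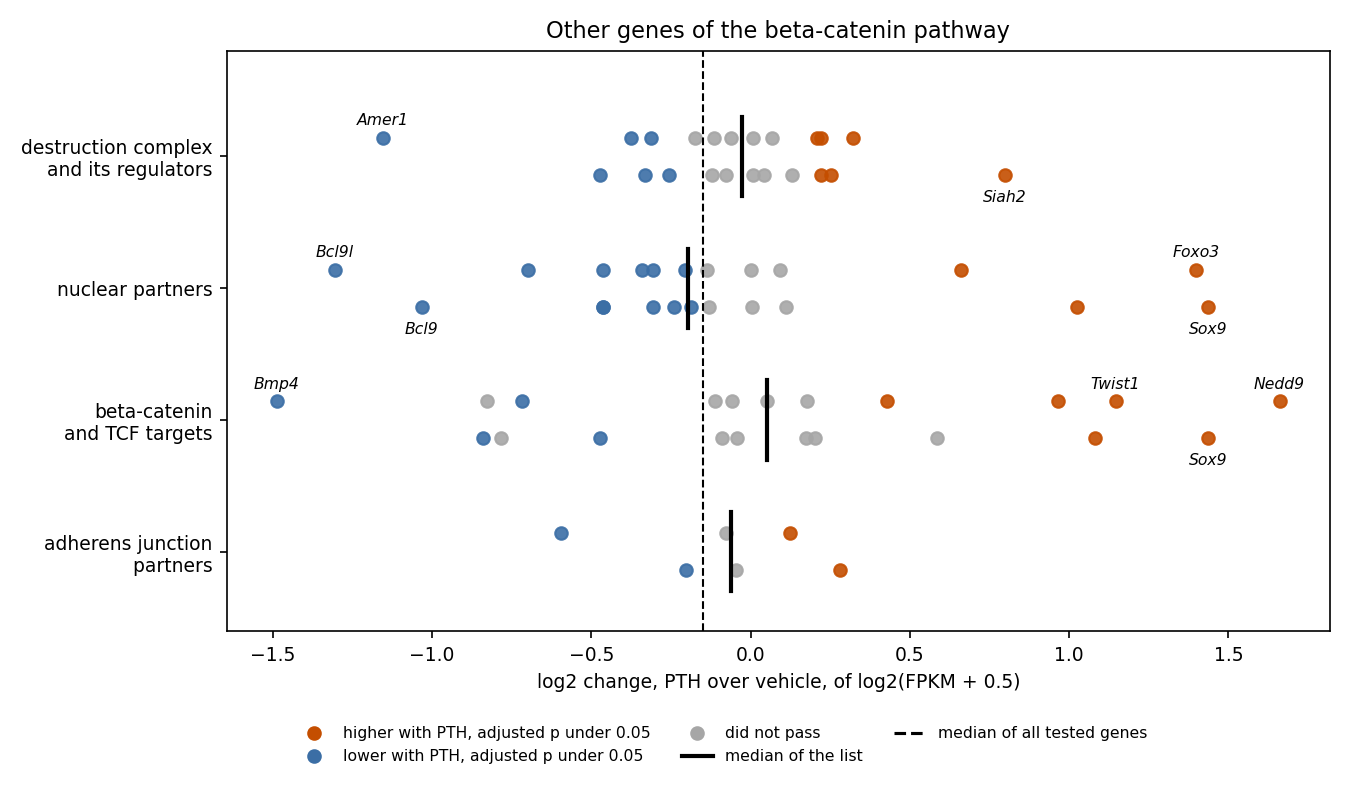
Log2 change, PTH over vehicle, of the tested genes of 4 lists (points; the text gives the count of each list), with the median of each list as a bar and the median of all tested genes (-0.15) as a dashed line, all from the values as deposited. Points past the threshold lie on both sides of 0 in every list, and Sox9 is a member of more than one list.

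Among the nuclear partners of beta-catenin and TCF 12 of 22 tested genes fell and 4 rose (median -0.20), where 41.0% and 10.8% of all tested genes did. With centred libraries 6 fell and 6 rose, and under cyclic loess 5 fell and 7 rose. Bcl9l and Bcl9, adaptors that tie beta-catenin to the coactivator Pygo, both fell. Bcl9l had 7.78, 7.69 and 6.71 FPKM with PTH, against 17.9, 18.8 and 20.3 FPKM with vehicle (log2 -1.31), and Bcl9 had 3.51, 4.08 and 3.81 FPKM with PTH, against 8.60, 7.42 and 8.88 FPKM with vehicle (log2 -1.03). No overlap was seen for either gene, and both calls held with centred libraries.

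Foxo3, a forkhead factor that also binds beta-catenin, rose to 46.5 ± 2.98 FPKM with PTH, against 17.3 ± 0.834 FPKM with vehicle (SD, n = 3 each; log2 1.40). Sox9, which counts here as a partner and as a target, had 23.3, 23.9 and 24.7 FPKM with PTH, against 8.81, 7.10 and 9.95 FPKM with vehicle (log2 1.44). Of the Groucho corepressors Tle3 and Tle1 rose by 1.03 and 0.66, Tle2 and Tle4 fell by 0.46 and 0.31, and the related Aes changed by -0.14 and did not pass (adjusted p = 0.338), although it passed with the library number as a block (0.0363), and not with block and centring (0.822). Tcf7l1, the remaining TCF gene, had means of 17.59 FPKM with PTH and 22.45 FPKM with vehicle. It fell by 0.34 on the log2 scale, a call lost under cyclic loess (limma adjusted p = 0.0565). The fall of Tle2 was lost with centred libraries (-0.34, adjusted p = 0.101) and passed with centring and the block (0.0101), and that of Tle4 was lost in both fits (-0.18, adjusted p = 0.136 and 0.0607). Without both libraries numbered 1, 8 of the 22 genes fell and 4 rose.

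Of 21 tested genes known as targets of beta-catenin and TCF in several tissues 6 rose and 4 fell (median 0.05), where 10.8% and 41.0% of all tested genes did. With centred libraries 8 rose and 2 fell (median 0.18), and under cyclic loess 9 rose and 3 fell (median 0.25). Nedd9, a scaffold of focal adhesions, rose to 77.4 ± 9.55 FPKM with PTH, against 24.1 ± 2.82 FPKM with vehicle (SD, n = 3 each; log2 1.66), and Twist1, a mesenchymal transcription factor, rose by 1.15. The other genes that rose were Sox9, Gja1, Notum and Wisp2. Bmp4, a bone morphogenetic protein, fell by 1.49 on the log2 scale, and Rnf43, Ccnd1 and Cyr61 also fell. With centred libraries the falls of Ccnd1 (adjusted p = 0.0579) and Cyr61 (0.0675) were lost, and with centring and the block both passed (0.00058 and 0.0375); the fall of Rnf43 was lost under cyclic loess (0.0605). Cd44, a hyaluronan receptor, changed by -0.11 and did not pass (adjusted p = 0.243), although it passed with the library number as a block (0.0192); with centred libraries its change had the opposite sign (0.01, adjusted p = 0.920). Fst, which encodes follistatin, changed by 0.18 and did not pass (adjusted p = 0.128), but passed with the block (0.0207) and with centred libraries (0.30, adjusted p = 0.0285). With the library number as a block 9 rose and 7 fell, and without both libraries numbered 1, 6 rose and 6 fell. Many of these genes answer to other signals as well, and the list says nothing of binding in these cells.

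Among the adherens junction partners of beta-catenin 2 of 6 tested genes rose and 2 fell (median -0.06), where 10.8% and 41.0% of all tested genes did. Under cyclic loess 2 rose and 1 fell. Cdh11, an osteoblast cadherin, had 229.9, 224 and 230.4 FPKM with PTH, against 218, 203 and 208 FPKM with vehicle (log2 0.12, adjusted p = 0.0406). Ptpn1, a tyrosine phosphatase, rose by 0.28. Vcl, which encodes vinculin, had 34.9, 50.4 and 50.4 FPKM with PTH, against 54.2, 75.5 and 75.8 FPKM with vehicle (log2 -0.60), and Ctnnd1, which encodes p120 catenin, fell by 0.20 on the log2 scale. Both falls were lost with centred libraries (-0.47, adjusted p = 0.0839 for Vcl; -0.08, adjusted p = 0.249 for Ctnnd1), and with centring and the block Vcl passed (0.00016) and Ctnnd1 did not (0.189). Ctnna1, which encodes alpha-catenin, and Cdh2, which encodes N-cadherin, changed by -0.08 and -0.05 and did not pass.

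Markers of osteoblasts, the labelled cell type, were present. Of 10 osteoblast markers 9 had a value, each with a mean of at least 1 FPKM, and their summed level was 1113 to 1209 FPKM with PTH and 1076 to 1155 FPKM with vehicle. Spp1 and Cdh11 made up most of that sum, and other markers differed between the groups. Sp7, a factor needed to form osteoblasts, averaged 6.79 FPKM with PTH and 42.7 FPKM with vehicle, Bglap, which encodes osteocalcin, 26.9 FPKM with PTH and 5.04 FPKM with vehicle, its copy Bglap2 25.1 FPKM with PTH and 4.99 FPKM with vehicle, and Pth1r, the PTH receptor, 24.6 FPKM with PTH and 43.4 FPKM with vehicle. Bglap and Bglap2 are near-identical, so the division of reads between them is uncertain. Of 5 adipocyte markers 1 had a value (Fabp4, 0.491 to 0.722 FPKM over all libraries), and of 5 markers each of endothelium, skeletal muscle and T cells 0 had one, so the levels of Tcf7 stood beside no listed T-cell marker. Of 7 macrophage and osteoclast markers 3 had a value, with Ctsk at 127 to 149 FPKM over all libraries and Cd68 and Csf1r under 1 FPKM, and of 5 chondrocyte markers 3 had one, with sums of 3.46 to 8.39 FPKM with PTH and 3.06 to 6.29 FPKM with vehicle. The FPKM totals of the libraries ranged from 618221 to 853916, and the gene with the largest value took 19.0% to 39.6% of them.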

How the data were processed

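RNA-seq of 3 PTH and 3 vehicle libraries of MC3T3-E1 cells was analysed from 1 deposited table. Per the labels' protocols, a strand-specific mRNA kit was used and both fragment ends were read over 100 bases. The authors estimated transcript abundance as FPKM with Cufflinks, and the submitters' processing notes name the build mm10; aligner and versions: not given in the sources used here. Per the file headers, the authors' own group comparison stands beside these values, with its log2 fold change, p-value and q-value for every transcript.

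Transcript values were summed per symbol and tested on log2(FPKM + 0.5) with limma 3.58.1 (R 4.3.3; eBayes with trend, two-sided, Benjamini-Hochberg adjustment over all tested features, threshold 0.05). Genes needed a mean of at least 1 FPKM and transcripts a mean of at least 0.5 FPKM over the 6 libraries. FPKM values are not counts; no steps of whole reads were found among low values, and the depth is therefore unknown. Coordinates and transcript models are those of GENCODE M21, whose assembly is mm10, and all 33 member transcripts were found there. Scripts were tested on simulated data. There diffSplice made many false calls, and the ratio test of transcripts was added after this was seen. Python 3.11.15, pandas 2.3.3, SciPy 1.17.1 and matplotlib 3.10.9 were used.

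Same-numbered libraries deviated together from their group means (correlations of 0.42, 0.28 and 0.29 over 11628 genes). A fit with the library number as a block is therefore given where it changes the call of a member gene or its transcripts. For the genes of the lists it is given for some only, and other list genes changed their call with the block. Every crossed pair was below 0, but deviations from a group mean sum to 0. Values below 0 in crossed pairs therefore follow in part from the same-number correlation and are no separate evidence of pairing. The pairing comes from the titles and the same-number correlation, as the labels do not state it. Members, lists, motifs and tests were chosen with earlier results of these data known. The named genes are all members and, for each list, up to 4 genes with the largest change past the threshold without overlap between groups and up to 2 with the highest mean FPKM; genes named beyond that were chosen after their values were seen. One blank line of the table held no values.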

Additional observations from a re-analysis of the deposited data

How the results depend on the processing

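Axin2 kept its direction and its call under every alternative tried (log2 -1.05 with cyclic loess to -1.52 without PTH 2). Its limma adjusted p ran from 5.23e-10 as TPM, described next, to 0.0199 without vehicle 3. Variance information is shared among genes by limma, so the value as TPM does not rest on the spread of Axin2 alone. Ctnnb1 lost its call with centred libraries (-0.17, adjusted p = 0.123) and as TPM, a scaling to a fixed sum per library (-0.20, 0.614), and ranged from -0.36 to -0.23 with 1 library left out. Axin1 lost its call with centring (-0.034), with quantile normalisation (-0.10), with cyclic loess (-0.029), as TPM (-0.067), with the replicate block and centring together (-0.034), without both libraries numbered 1 (-0.15), without a trend (-0.16, adjusted p = 0.0539) and from its highest transcript alone (-0.039); leaving out 1 library gave -0.19 to -0.12. Tcf7 passed as TPM (-1.01), with the replicate block (-1.08), with the block and centring (-0.96) and without both libraries numbered 1 (-1.10), and ranged from -1.63 to -0.55 with 1 library left out. As TPM the limma adjusted p of Tcf7 was 1.04e-06, although the FPKM values of its groups overlapped, so that value does not rest on the spread of Tcf7 alone either. The gene with the largest value took 19.0% to 39.6% of the sum that TPM scales by. What this does to the calls as TPM was not tested. Tcf7l2 lost its call as TPM (0.39, adjusted p = 0.152), without both libraries numbered 1 (0.28, 0.131) and without Tcf7l2-209 (0.18, 0.159, chosen after seeing the data), had the opposite sign from its highest transcript alone (-0.11, 0.732), and ranged from 0.23 to 0.38 with 1 library left out. The cause of these losses was not tested, apart from centring, which moves all genes up by 0.12 on the log2 scale.

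The adjusted p for unequal change of the Tcf7l2 transcripts was 0.0799 with the replicate block, with or without centring, 0.763 without both libraries numbered 1, and 0.534 and 0.653 by the ratio test without and with the block (chosen after seeing the data); it ranged from 0.00491 to 0.451 with 1 library left out. With a minimum of 5 FPKM too few transcripts of Tcf7 or Tcf7l2 were left for that test, and the highest-transcript setting does not apply to transcripts. The 6017 changed genes became 2018 as TPM and 5007 to 5633 with 1 library left out. The 7211 changed transcripts became 4003 with a minimum of 5 FPKM, 2160 as TPM, 3838 without both libraries numbered 1, and 4501 to 5603 with 1 library left out. Centring moved the split from 1252 higher and 4765 lower genes to 2131 higher and 2792 lower. The replicate block, applied to the paired numbers, changed no call of a member gene other than Tcf7 in the fit without centring; with centred libraries it also turned Ctnnb1 (adjusted p = 0.123 without and 0.00604 with it). Of the pathway lists, cyclic loess left 2 lower genes in the destruction complex list, 7 higher and 5 lower among nuclear partners and 1 lower among junction partners, and centring left 2 lower among targets.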
